A study of Mus musculus with 153 samples.

Results

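Genes that make, pack, take back and break down GABA (Gad1, Gad2, Slc32a1, Slc6a11 and Abat) were followed by their read counts through ribosome-bound and total RNA of the mouse dorsal hippocampus. They were taken by symbol as the 5 member rows of 25103 gene symbols listed over the 6 count tables, and all 5 were found and passed the filter on low counts in every table. GABA is the main fast inhibitory transmitter of the forebrain. It is made from glutamate by glutamate decarboxylase, loaded into synaptic vesicles, cleared after release by transporters of neurons and astrocytes, and degraded in mitochondria. In the hippocampus the parvalbumin and somatostatin interneurons are both GABAergic, whereas the pyramidal and granule neurons release glutamate.

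The series compares 3 mouse lines, Pvalb.Cre/TRAPfl, Sst.Cre/TRAPfl and Camk2a.Cre/TRAPfl, in which the driver marks parvalbumin interneurons, somatostatin interneurons or forebrain excitatory neurons and every group carries the TRAPfl allele. In TRAP, translating ribosome affinity purification, the ribosomes of the marked cells are pulled out with the mRNA bound to them (the purified fraction), and the total lysate holds RNA of all cells of the tissue. Mice were shocked in a new context (shock), put into it with no shock (box) or left in the home cage, in sets named 15 min and 60 min, and ages and sexes are not given in the sources used here. The 151 libraries, 76 purified and 75 of lysate, make up 36 groups with 3 to 6 libraries each, described by the submitters as biological replicates. Nothing used here says which animals they came from, so the tests weigh differences against the spread among those libraries, which may be partly technical. A driver reports its own history of expression, so a purified fraction can also hold RNA of other cells that once used the driver, and RNA of unmarked cells that was carried along.

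Gad1 encodes one of the 2 glutamate decarboxylases and lies at chr2:70553072-70602014 on the plus strand (ENSMUSG00000070880.10, GENCODE M21 on GRCm38). Gad2, the other decarboxylase, which is tied to synaptic vesicles, lies at chr2:22622205-22693874 (ENSMUSG00000026787.3), and Slc32a1, the vesicular GABA transporter, at chr2:158610767-158615748 (ENSMUSG00000037771.11), both on the plus strand. Slc6a11, a plasma membrane GABA transporter found mainly in astrocytes, lies at chr6:114131241-114249952 (ENSMUSG00000030307.8), and Abat, the mitochondrial GABA transaminase, at chr16:8513429-8621568 (ENSMUSG00000057880.12), also on the plus strand. Whether reads were counted by strand is not stated, and Gad1os, an antisense RNA that overlaps Gad1, had at most 1.04 CPM in any library of the 5 tables that list it. CPM are read counts scaled to a total of 1000000 over all genes listed in a library. Gm14205, an antisense RNA that overlaps Slc32a1, is not analysed here, so reads of that pair cannot be told apart.

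The stretches just before the starts of 4 members are shown because Gad1, Gad2 and Slc32a1 went up and down together over the groups below, whereas Slc6a11 had another pattern. They come from RefSeq on GRCm38.p6, plus strand, and bases inside an annotated exon are left out. Capitals mark matches to the E-box CANNTG, the letters read by basic helix-loop-helix factors. The Gad1 stretch lies inside the annotated gene, whose longest transcript starts further upstream.
Gad1 (chr2:70561879-70562041): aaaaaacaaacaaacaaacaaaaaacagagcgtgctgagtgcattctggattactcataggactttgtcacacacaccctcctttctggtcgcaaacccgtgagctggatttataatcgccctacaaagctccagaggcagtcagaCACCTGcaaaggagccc
Gad2 (chr2:22622077-22622204): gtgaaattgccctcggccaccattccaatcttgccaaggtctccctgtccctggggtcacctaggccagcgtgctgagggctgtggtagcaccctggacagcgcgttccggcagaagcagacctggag
Slc32a1 (chr2:158610508-158610757): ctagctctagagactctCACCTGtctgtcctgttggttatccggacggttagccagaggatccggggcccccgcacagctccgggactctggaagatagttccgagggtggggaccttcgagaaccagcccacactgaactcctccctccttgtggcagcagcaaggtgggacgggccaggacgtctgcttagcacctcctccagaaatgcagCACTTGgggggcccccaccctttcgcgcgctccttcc
Slc6a11 (chr6:114130991-114131240): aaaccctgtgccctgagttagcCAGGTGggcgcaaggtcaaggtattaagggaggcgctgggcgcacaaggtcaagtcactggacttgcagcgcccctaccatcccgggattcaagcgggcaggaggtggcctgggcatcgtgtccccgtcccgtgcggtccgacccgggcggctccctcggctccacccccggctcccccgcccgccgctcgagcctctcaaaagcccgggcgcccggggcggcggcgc
The 163 bases of Gad1 hold 1 E-box and were the least rich in G and C, at 46.6%, and 52.1% of all 32851 RefSeq windows trimmed to that length hold an E-box. The 128 bases of Gad2 hold none, against 43.9% of windows of that length. Slc32a1 has 2 E-boxes and Slc6a11 has 1 in 250 bases, a length at which 66.2% of windows hold one. The palindrome TAATTA, read by homeodomain factors, is in none of the 4, and is in 2.75% to 4.84% of windows of these lengths. TATAAA has 1 match in the Gad1 stretch and none in the other 3, and is in 7.78% of windows of the Gad1 length. Both strands were searched, no 2 matches overlap, and a match is a run of letters, not a bound site.

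Total counts per library ran from 9043042 to 397228206 with a median of 71403674. Pvalb itself had a median of 702 and 816 CPM in purified Pvalb-line libraries at 15 and 60 min, against 18.5 CPM in their lysates at either time. Sst had a median of 802 and 1081 CPM in purified Sst-line libraries, against 149 and 116 CPM in their lysates, but its lowest purified values were 41.8 and 2.98 CPM. Camk2a had a median of 591 and 1214 CPM in purified Camk2a-line libraries, against 456 and 792 CPM in their lysates, with overlap. Each interneuron line also held the other's marker above its lysates at the median, with overlap. Sst had 419 and 481 CPM in purified Pvalb-line libraries at 15 and 60 min, against 314 and 262 CPM in lysates. Pvalb had 215 and 119 CPM in purified Sst-line libraries, against 32.1 and 31.5 CPM. In the Sst set at 15 min, box replicate 2, home cage replicate 2 and shock replicates 4 and 5 had purified Sst no higher than the highest lysate. In the Sst set at 60 min all 4 purified shock libraries had little Sst, 2.98, 116, 155 and 5.28 CPM, and the lysates of shock replicates 1 and 4 held under 1 CPM of it. In that set box replicate 1 and home cage replicates 4 and 5 had over 250000000 counts in both fractions, called the deep libraries here, and no shock library did. Fitted values that rest on these libraries are given without them where leaving them out changed a call, turned a sign or moved a called value by over 1.5 times.

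**Figure D1:**
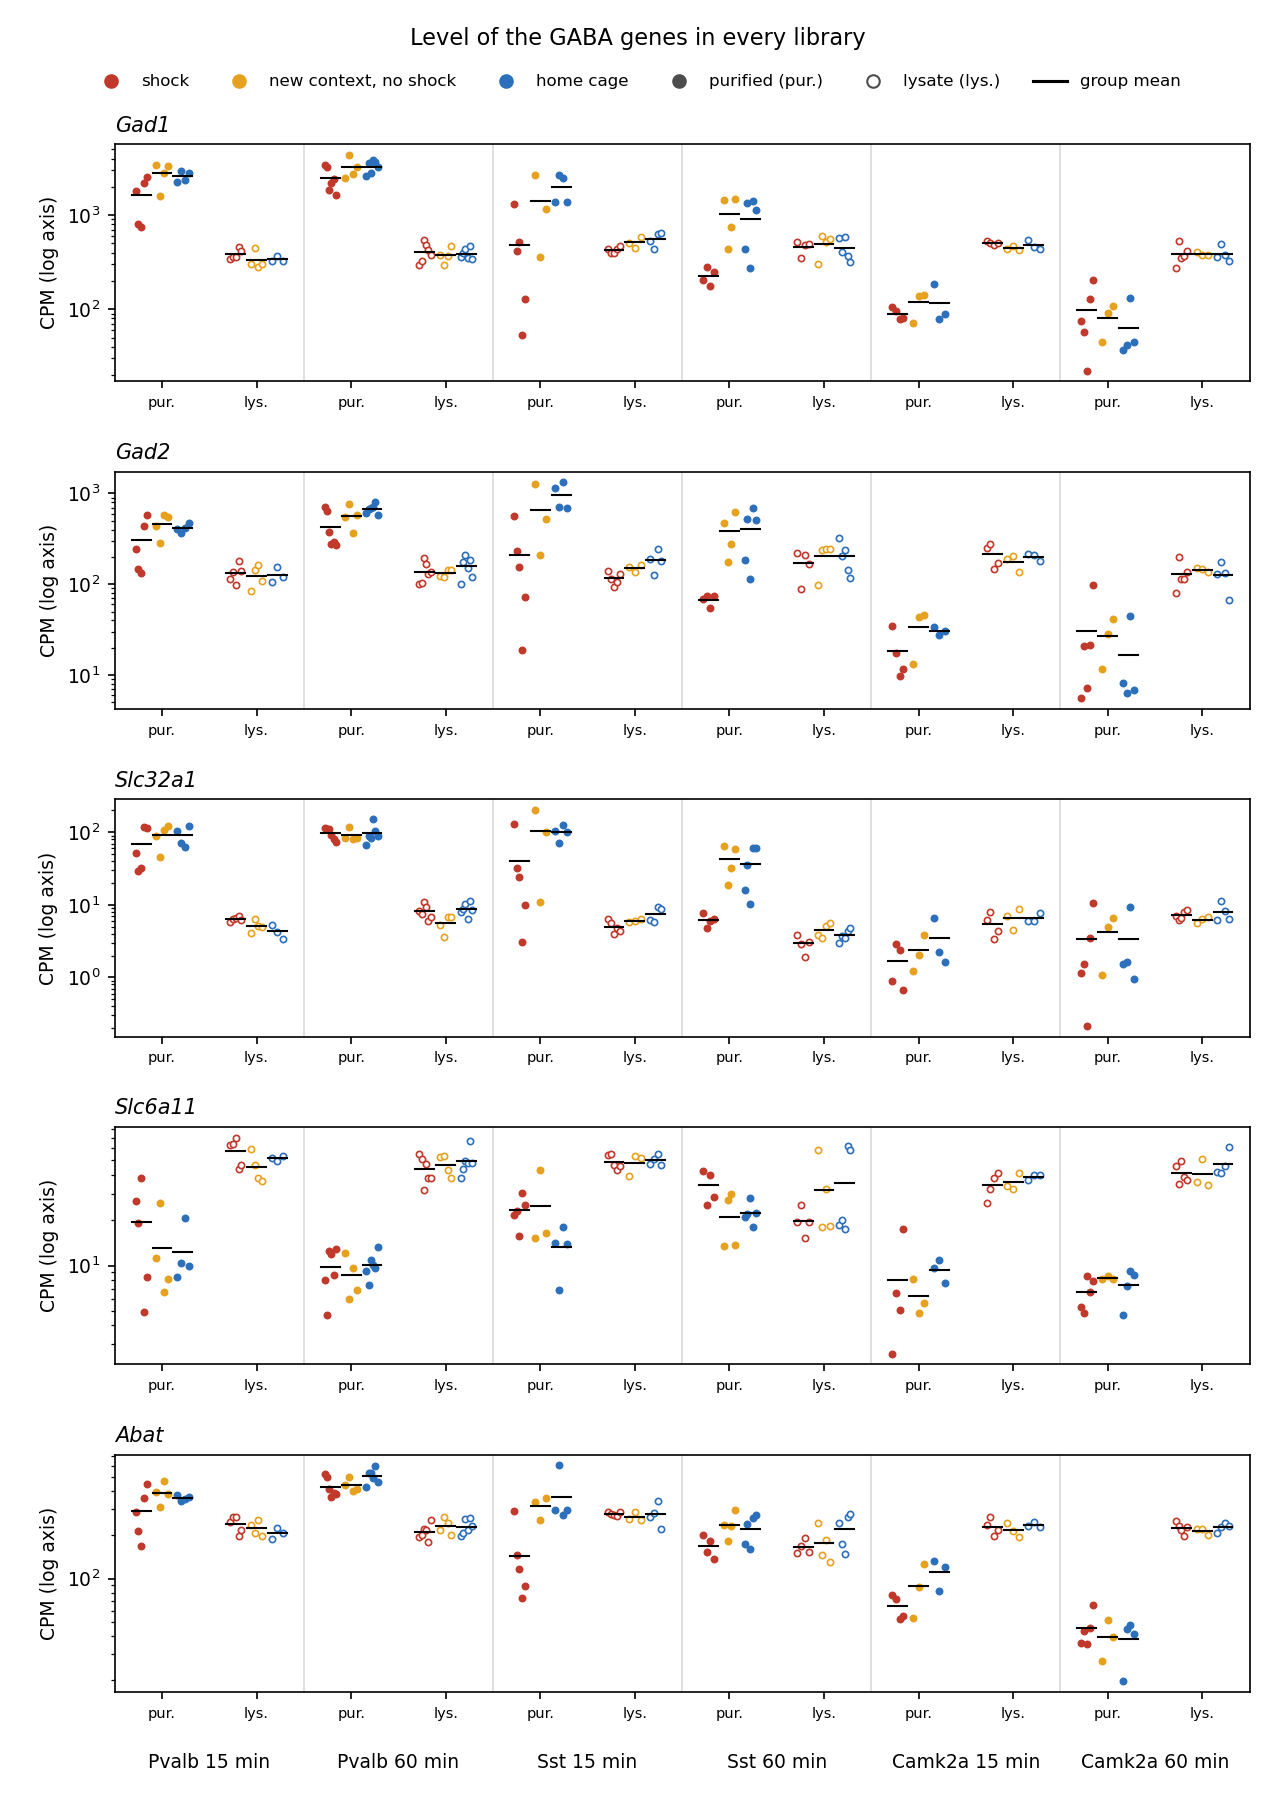
Level of each member, as CPM on a log axis, in every library of the 3 lines and both time sets, with the purified fraction left of the lysate; points are libraries, coloured by condition, and bars are group means. Gad1 and Slc32a1 sit above the lysates in the purified Pvalb line, and so does Gad2 but for an overlap at 15 min. In the Camk2a line Gad1, Gad2 and Slc32a1 sit below or at the lysates. Purified libraries of the Sst line at 15 min lie on both sides of their lysates for all 3.

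In ribosome-bound RNA of the Pvalb line the genes of synthesis and vesicle loading stood far above the lysate. Gad1 ran from 752 over a median of 2337 to 3388 CPM in 13 purified libraries at 15 min, against 281, 349 and 456 CPM in 12 lysates. At 60 min it ran from 1633 over 3006 to 4383 CPM in 16 purified libraries, against 294, 377 and 543 CPM in 16 lysates. No purified Pvalb library reached down to a lysate at either time, and the log2 fold changes of the fitted levels were 2.96 ± 0.21 and 3.21 ± 0.13 (SE, adjusted p = 1.6e-10 and 1.2e-19). Gad2 had 133, 413 and 579 CPM as its lowest, median and highest in purified libraries at 15 min, against 84.2, 128 and 181 CPM in lysates, with overlap, and 271, 595 and 808 CPM at 60 min, against 100.1, 140.3 and 212 CPM, with none. Its log2 fold changes were 1.88 ± 0.23 and 2.24 ± 0.16 (adjusted p = 3.2e-07 and 4.6e-14).

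Slc32a1 had the highest fitted fold change of the 5 in the Pvalb line. It ran from 29.7 over 90.3 to 123 CPM in purified libraries at 15 min, against 3.43, 5.55 and 6.96 CPM in lysates, and from 65.8 over 88.4 to 153 CPM at 60 min, against 3.65, 7.70 and 11.3 CPM. The groups did not overlap at either time, with log2 fold changes of 4.26 ± 0.27 and 3.97 ± 0.14 (adjusted p = 2.5e-11 and 6.5e-21). Abat rose by less, 0.90 ± 0.14 and 1.33 ± 0.08 (log2, adjusted p = 1.1e-05 and 5.4e-16). It had 168, 357 and 474 CPM in purified libraries at 15 min, against 188, 221 and 267 CPM in lysates, with overlap, and 366, 453 and 601 CPM at 60 min, against 179, 217 and 265 CPM, with none.

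Slc6a11 went the other way. In purified Pvalb libraries it had 4.88, 10.4 and 37.9 CPM at 15 min, against 36.3, 50.3 and 70.5 CPM in lysates, and 4.71, 9.67 and 13.3 CPM at 60 min, against 31.8, 47.6 and 67.3 CPM. Its highest purified values met the lowest lysates at 15 min and stayed below them at 60 min, with log2 fold changes of −1.59 ± 0.25 and −2.02 ± 0.13 (adjusted p = 8.8e-06 and 6.4e-15). The summed CPM of 12 astrocyte markers moved the same way, with medians of 2634 and 2440 in purified Pvalb libraries at 15 and 60 min, against 5986 and 5697 in their lysates, and their part in the fall of Slc6a11 was not tested.

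In the Sst line, over the 3 conditions, Slc32a1 rose at both times, and the decarboxylases rose at 15 min. Within single conditions at 15 min Gad1 was called higher in the home cage alone, Gad2 in the home cage and the box, and Slc32a1 in all 3. At that time Gad1 had 53.0, 1241 and 2679 CPM as its lowest, median and highest in 12 purified libraries, against 394, 460 and 649 CPM in 12 lysates. Gad2 had 18.9, 546 and 1323 CPM, against 94.2, 138 and 246 CPM in lysates, and Slc32a1 had 3.08, 85.9 and 202 CPM, against 3.91, 5.87 and 9.26 CPM. All 3 overlapped, and shock replicates 4 and 5 lay below every lysate for both decarboxylases. The log2 fold changes were 1.60 ± 0.38 for Gad1, 2.24 ± 0.39 for Gad2 and 4.08 ± 0.51 for Slc32a1 (adjusted p = 0.0017, 6.9e-05 and 1.1e-06), and without the 4 libraries of low Sst they were 1.90, 2.63 and 4.52. Slc6a11 fell by 0.92 ± 0.16 (adjusted p = 7.7e-05), with 17.3 CPM as the median of purified libraries and 48.9 CPM in lysates. Abat had a log2 fold change of 0.33 ± 0.20 (adjusted p = 0.18), which passed the threshold without those 4 libraries, at 0.40 (adjusted p = 0.024), and with offsets for GC content and exon length in each library, at 0.74 (adjusted p = 0.0029). In home cage libraries alone Abat had 0.93 (adjusted p = 0.040), and 0.55 (adjusted p = 0.074) there without the library of low Sst.

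At 60 min Slc32a1 was the 1 member of 5 to pass the threshold in the Sst line. It ran from 4.80 over 18.9 to 64.1 CPM in 13 purified libraries, against 1.93, 3.72 and 5.70 CPM in 13 lysates, a log2 fold change of 2.53 ± 0.26 (adjusted p = 1.4e-07). Gad1 had 177, 437 and 1489 CPM in purified libraries, against 300.4, 492 and 600.4 CPM in lysates, and Gad2 had 55.1, 183 and 699 CPM, against 89.2, 209.6 and 325 CPM. Purified libraries lay on both sides of the lysates for both genes, and the log2 fold changes were 0.34 ± 0.25 and 0.17 ± 0.28 (adjusted p = 0.24 and 0.62). With offsets for GC content and exon length in each library they were 0.60 and 0.99 and passed the threshold (adjusted p = 0.042 and 0.0010), and that of Slc32a1 was 1.26. Without the deep libraries the values were −0.19 for Gad1 and −0.43 for Gad2 (adjusted p = 0.54 and 0.19), and Slc32a1 kept its call at 2.01. For Gad1 and Gad2 the home cage and shock values had opposite signs in this set. Tested directly, the difference between them was called by DESeq2 and not by edgeR. In home cage libraries Gad1 had a log2 fold change of 1.11 ± 0.40 (adjusted p = 0.043) and Gad2 one of 1.06 ± 0.45 (adjusted p = 0.080), beside 25.9% of genes called. In shock libraries Gad1 had −1.16 ± 0.45 (adjusted p = 0.054) and Gad2 −1.49 ± 0.50 (adjusted p = 0.033), beside 27.6%. Without the deep libraries, which are 2 of the 5 home cage pairs, the home cage value of Gad1 was 0.23 (adjusted p = 0.72) and that of Gad2 −0.06 (adjusted p = 0.93). The home cage call of Gad1 was lost under 6 of 7 alternatives, and in 9 of 13 fits that each left out 1 replicate, namely box replicates 1 and 3, home cage replicates 2, 4 and 5 and any of the 4 shock replicates. The shock call of Gad2 was lost under 3, among them the GC and length offsets, at −0.62 (adjusted p = 0.36), and Gad1 in shock libraries was called without the deep libraries, at −1.27 (adjusted p = 0.026).

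Slc6a11 in the Sst line at 60 min split by depth. It averaged 17.9 ± 4.40 CPM in the 3 deep purified libraries, against 59.5 ± 2.15 CPM in their 3 lysates (SD, n = 3 each). In the other 10 of each fraction it averaged 27.8 ± 8.52 CPM in purified libraries and 20.4 ± 4.88 CPM in lysates (SD). Over all 13 the log2 fold change was −0.11 ± 0.21 (adjusted p = 0.66), and without the deep libraries it was 0.22. With offsets for GC content and length it was −0.65 (adjusted p = 1.2e-05). In the other sets lysates averaged 36.1 to 51.9 CPM of Slc6a11, between the deep lysates and the other 10. Sst averaged 3824 CPM in the deep purified libraries and 993 CPM in the other 10, among them all shock libraries. The sources used here name nothing but depth that sets the 3 deep pairs of libraries apart.

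In the Camk2a line all 5 members were lower in the purified fraction at 15 min. Gad1 had 71.6, 92.9 and 185 CPM in 10 purified libraries, against 427, 478 and 540 CPM in 10 lysates, and Gad2 had 9.76, 29.1 and 45.4 CPM, against 136, 199 and 281 CPM. Neither overlapped, and the log2 fold changes were −1.80 ± 0.15 and −2.53 ± 0.24 (adjusted p = 5.8e-09 and 2.6e-08). At 60 min they were −2.0 ± 0.27 and −2.21 ± 0.44 (adjusted p = 1.4e-06 and 0.00022). Slc6a11 fell by 1.89 ± 0.24 and 2.24 ± 0.13, and Abat by 1.04 ± 0.13 and 2.14 ± 0.13 (log2, adjusted p of 2.1e-06 or less), with no overlap of the fractions.

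Slc32a1 changed least in this line. It had 0.66, 2.15 and 6.56 CPM in purified Camk2a libraries at 15 min, against 3.42, 6.03 and 8.66 CPM in lysates, and 0.21, 1.57 and 10.6 CPM at 60 min, against 5.54, 6.61 and 11.2 CPM. The fractions overlapped at both times, and the log2 fold changes were −1.0 ± 0.35 (adjusted p = 0.022) and −0.69 ± 0.45 (adjusted p = 0.19). At 60 min home cage replicate 3 held 9.47 CPM, against 0.95 to 1.62 CPM in the other 3 home cage libraries, and without it the fold change was −1.12 (adjusted p = 0.034). At 15 min the call was lost with offsets for GC content and length, at −0.67 (adjusted p = 0.14), and when any of box replicate 1, home cage replicate 2 or home cage replicate 3 was left out, with adjusted p of 0.060 to 0.077. The 12 astrocyte markers summed to a median of 897 and 651 CPM in purified Camk2a libraries, against 6304 and 5658 CPM in lysates, and all 12 fell at either time.

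**Figure D2:**
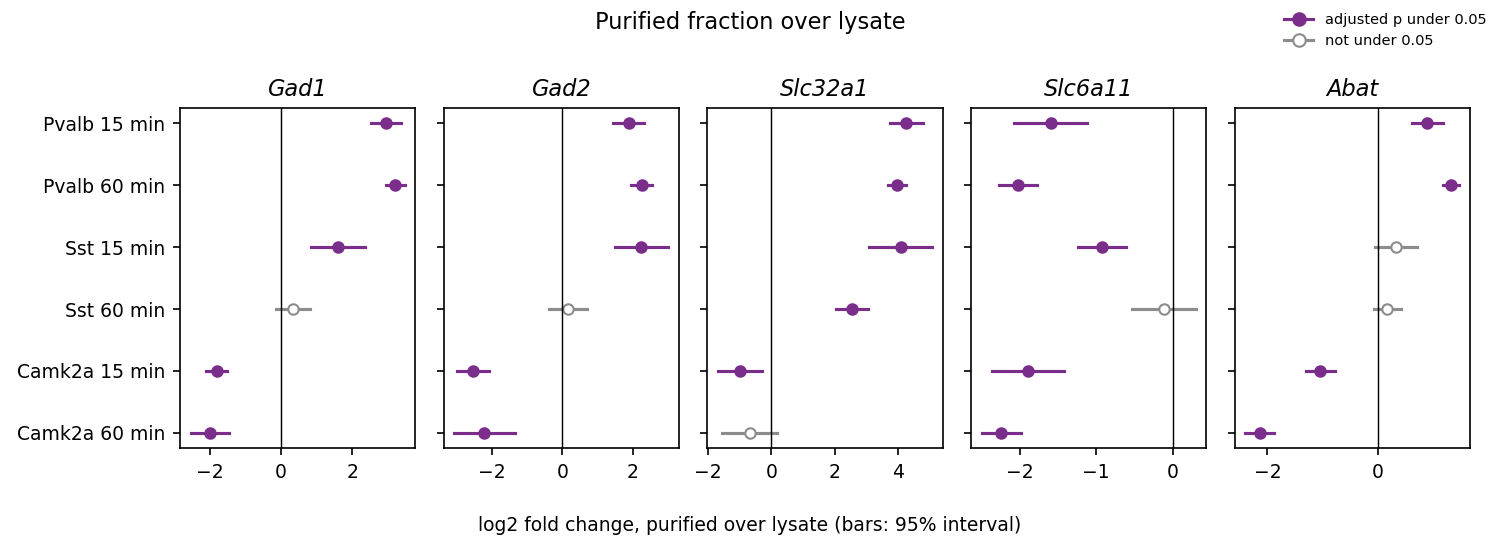
Log2 fold change of the purified fraction over the lysate for each member in the 3 lines and both time sets; points are fitted values over the 3 conditions and bars are 95% intervals. Slc32a1 has the highest value of the members in the 4 sets of the interneuron lines, and the Slc6a11 value is below 0 in all 6 sets.

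In all, 24 of the 30 member fold changes of purified over lysate passed the threshold, all 5 in the Pvalb sets, 4 and 1 in the Sst sets and 5 and 4 in the Camk2a sets at 15 and 60 min. These counts stand beside a share of all tested genes that was itself high. It was 45.6% and 60.4% in the Pvalb sets, 44.5% and 59.4% in the Sst sets and 50.7% and 57.5% in the Camk2a sets. Within single conditions 65 of 90 passed, beside 27.9% of all gene tests in those contrasts. The median log2 fold change over all tested genes lay between −0.26 and 0.11 in the 6 sets, and that of the 5 members is not tested against it.

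Among 29 other genes of GABA and glutamate handling, calls went both ways. Rising and falling genes numbered 8 and 8 in the purified Pvalb line at 15 min and 12 and 11 at 60 min, 8 and 8 and then 9 and 10 in the Sst line, and 7 and 14 of 28 and then 7 and 18 in the Camk2a line. In the Pvalb line at 15 min the rising ones included Slc38a1, a glutamine transporter of neurons, at a log2 fold change of 2.06 ± 0.21 and Aldh5a1, which removes the product of Abat, at 1.83 ± 0.18. In the Camk2a line Slc1a3, a glutamate transporter of astrocytes, fell by 3.39 ± 0.13 and 3.95 ± 0.14, and Glul, glutamine synthetase, by 1.86 ± 0.08 and 2.37 ± 0.11.

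The home cage libraries of the purified fraction were then set against each other between lines. A line is also a count table, so lines and tables cannot be told apart here. At 15 min Gad1 had 2268, 2949, 2337 and 2830 CPM in the Pvalb line, 1383, 2679, 2487 and 1380 CPM in the Sst line and 185, 78.8 and 89.5 CPM in the Camk2a line. Both interneuron lines lay wholly above the Camk2a line and overlapped each other. At 60 min Gad1 ran from 2627 over 3402 to 3866 CPM in the Pvalb line, and had 435, 1331, 274, 1402 and 1138 CPM in the Sst line and 36.6, 41.4, 131 and 44.9 CPM in the Camk2a line. These 3 groups did not overlap.

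Gad2 at 15 min had 408, 371, 413 and 479 CPM in the Pvalb line, 1162, 705, 1323 and 695 CPM in the Sst line and 33.9, 27.5 and 30.7 CPM in the Camk2a line. Here every Sst library stood above every Pvalb library, the reverse of the order of Gad1 at 60 min. At 60 min Gad2 ran from 575 over 683 to 808 CPM in the Pvalb line, and had 183, 518, 115, 699 and 506 CPM in the Sst line and 8.25, 6.35, 44.7 and 6.85 CPM in the Camk2a line. The interneuron lines overlapped at that time.

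Slc32a1 at 15 min had 106, 71.8, 62.5 and 123 CPM in the Pvalb line, 105, 72.1, 125 and 102 CPM in the Sst line and 6.56, 2.27 and 1.65 CPM in the Camk2a line. At 60 min it ran from 65.8 over 88.4 to 153 CPM in the Pvalb line, above the 16.2, 35.6, 10.3, 59.8 and 60.5 CPM of the Sst line and the 1.51, 1.62, 9.47 and 0.95 CPM of the Camk2a line. The interneuron lines overlapped at 15 min and did not at 60 min.

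Slc6a11 was low in all 3 purified lines, with 8.40, 10.4, 20.6 and 9.87 CPM in the Pvalb line, 14.1, 6.90, 18.0 and 13.9 CPM in the Sst line and 9.67, 10.9 and 7.62 CPM in the Camk2a line at 15 min. At 60 min it ran from 7.40 over 9.86 to 13.3 CPM in the Pvalb line, below the 21.1, 22.1, 28.0, 18.1 and 22.2 CPM of the Sst line, and had 4.72, 7.29, 9.21 and 8.61 CPM in the Camk2a line. Abat at 15 min had 374, 343, 352 and 367 CPM in the Pvalb line, 296, 603, 275 and 296 CPM in the Sst line and 131, 82.0 and 120.4 CPM in the Camk2a line. At 60 min Abat ran from 430.2 over 512 to 601 CPM in the Pvalb line, with 172, 238, 159.5, 262 and 273 CPM in the Sst line and 19.6, 45.2, 47.7 and 41.2 CPM in the Camk2a line, and these groups did not overlap.

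Against the Camk2a line the Pvalb line had 4 of 5 members called at both times, beside 15.2% and 51.8% of all genes at 15 and 60 min. Gad1 had log2 differences of 4.37 ± 0.80 and 5.59 ± 0.57, Gad2 of 3.67 ± 0.82 and 5.26 ± 0.73, Slc32a1 of 4.60 ± 1.0 and 4.75 ± 0.75 and Abat of 1.59 ± 0.41 and 3.62 ± 0.25 (adjusted p from 0.0080 down to 4.3e-14). Slc6a11 had 0.29 ± 0.53 and 0.33 ± 0.26 (adjusted p = 0.77 and 0.29). The Sst line over the Camk2a line had 4 members called at 15 min, beside 9.5% of genes, and 5 at 60 min, beside 24.4%. Gad2 had the highest of these, 5.03 ± 0.88 and 4.39 ± 0.70, followed by Slc32a1 at 4.88 ± 1.02 and Gad1 at 4.11 ± 0.79 at 15 min, and Slc6a11 at 60 min had 1.33 ± 0.27 (adjusted p = 0.00036). The 15 min calls of Abat over the Camk2a line, 1.59 and 1.73, had adjusted p of 0.057 and 0.053 without Camk2a home cage replicate 2. Without the deep libraries all 5 members kept their calls for Sst over Camk2a at 60 min, with Slc32a1 at 2.33 against 3.22 with them. All 12 astrocyte markers were also higher in both interneuron lines than in the Camk2a line at 60 min, 11 of them called in each, and their part in the Slc6a11 difference was not tested.

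Between the 2 interneuron lines edgeR called no member at 15 min, beside 0.0548% of genes, DESeq2 none either, and Gad2 had an unadjusted p under 0.05 (log2 difference −1.36 ± 0.66). At 60 min 4 were called, beside 44.2% of genes. Gad1 stood higher in the Pvalb line by 1.97 ± 0.43, Abat by 1.33 ± 0.21 and Slc32a1 by 1.53 ± 0.58, and Slc6a11 lower by −1.01 ± 0.24 (log2, adjusted p = 0.00034, 2.7e-06, 0.029 and 0.00076). Gad2 had 0.87 ± 0.54 (adjusted p = 0.20). With the lysate difference of the same lines subtracted, the Slc32a1 difference was 0.60 and missed the threshold, and that of Gad2 was 1.56 (adjusted p = 0.041). The Slc32a1 call was also lost when any of Pvalb home cage library u1, a library with no replicate number, or Sst home cage replicates 1, 2 or 3 was left out, with adjusted p of 0.061 to 0.086. Without the deep libraries the same 4 members were called, and the Slc32a1 difference was 2.42 (adjusted p = 0.0077).

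Levels of different genes were set side by side only per kilobase of annotated exon, using exon lengths of 7.64, 5.88, 2.80, 5.05 and 7.75 kb for Gad1, Gad2, Slc32a1, Slc6a11 and Abat. In home cage purified Pvalb libraries at 60 min Gad1 had 431 ± 64.9 CPM per kb, Gad2 116 ± 14.0, Abat 65.7 ± 7.79, Slc32a1 34.7 ± 10.7 and Slc6a11 1.99 ± 0.38 (SD, n = 6). The same order held in the Sst line at 60 min, with 119.9 ± 68.7 CPM per kb for Gad1, 68.8 ± 41.9 for Gad2, 28.5 ± 6.71 for Abat, 13.0 ± 8.43 for Slc32a1 and 4.41 ± 0.71 for Slc6a11 (SD, n = 5), where Gad1 and Gad2 lie within each other's spread. A single annotated exon length stands in for transcripts whose real ends may differ.

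The balance of the 2 decarboxylases within a library needs no scaling of library totals, and it separated the interneuron lines. Gad1 and Gad2 differ in GC content (47.3% and 44.1%) and exon length, and the ratio carries no offsets for these. Those offsets moved the 2 genes by unlike amounts in the Sst set at 60 min, as given above. Over all conditions the ratio of Gad1 to Gad2 counts ran from 4.43 over 5.66 to 7.95 in purified Pvalb libraries at 15 min and from 4.08 over 5.35 to 8.40 at 60 min. In purified Sst libraries it ran from 1.19 over 2.05 to 3.80 at 15 min and from 2.01 over 2.57 to 3.77 at 60 min. No Sst library reached the lowest Pvalb library in either set. In purified Camk2a libraries, where Gad2 counts are low, the ratio spread over 2.87, 4.33 and 8.03 at 15 min and 2.12, 3.51 and 13.6 at 60 min, and lysate medians lay between 2.35 and 3.45.

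**Figure D3:**
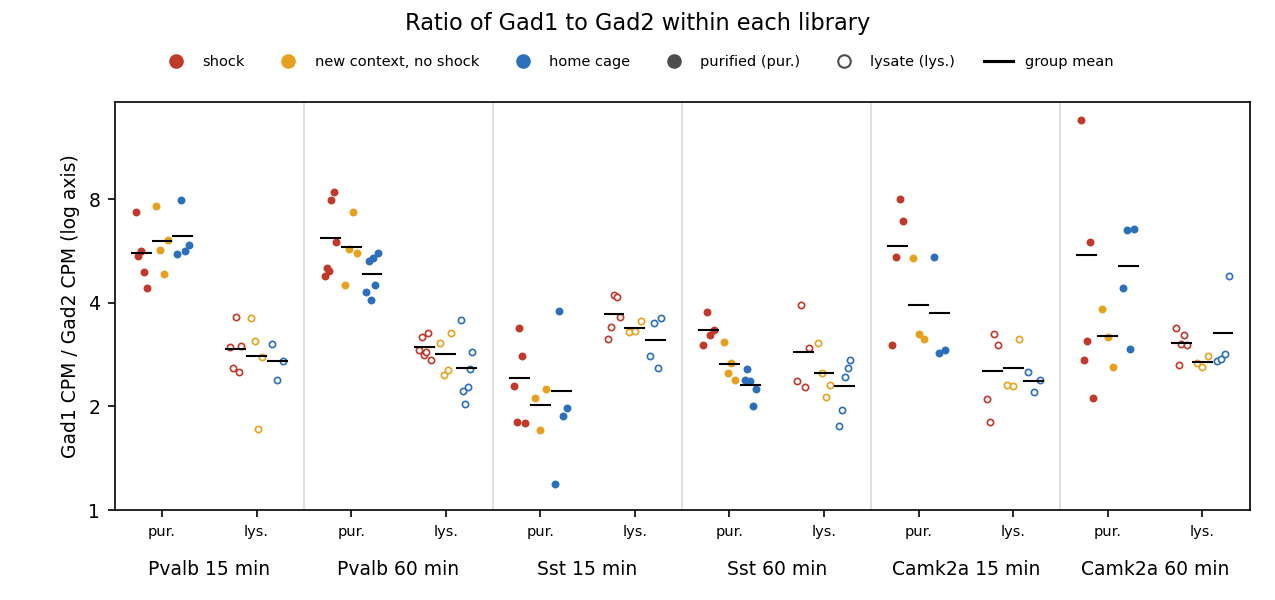
Ratio of Gad1 to Gad2 counts within each library, on a log axis, in the 3 lines and both time sets, with the purified fraction left of the lysate; points are libraries, coloured by condition, and bars are group means. Purified Pvalb libraries lie between 4.08 and 8.40 and purified Sst libraries between 1.19 and 3.80.

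Restricted to the home cage, the ratio was 4.08 to 5.59 in 6 purified Pvalb libraries at 60 min, against 2.01 to 2.57 in 5 purified Sst libraries (log2 difference 1.06, two-sided exact permutation p = 0.0043, adjusted p = 0.052 over 36 ratio tests). At 15 min it was 5.56 to 7.95 against 1.19 to 3.80 in 4 libraries each (log2 difference 1.61, exact p = 0.029, adjusted p = 0.11), and both p-values are the smallest that these group sizes allow. The highest Sst value at 15 min, 3.80, belonged to home cage replicate 2, whose Pvalb level of 1378 CPM and Sst level of 205 CPM also went against its line, and the other 3 lay at 1.19 to 1.98. Against the lysate of its own line, the ratio was higher in purified Pvalb home cage libraries at 60 min, 4.08 to 5.59 against 2.04 to 3.57 (log2 difference 0.92, exact p = 0.0022, adjusted p = 0.052). That difference was 1.20 in the Pvalb set at 15 min. It was 0.59 and 0.61 in the Camk2a sets at 15 and 60 min, and −0.61 and 0.03 in the Sst sets. The purified Pvalb ratio stood above that of the Camk2a line by 0.80 (log2) at 15 min. At 60 min these 2 lines overlapped, with medians of 4.88 and 5.38 (log2 difference −0.009). These ratios were chosen for testing after the levels had been seen, and none passed the threshold once adjusted.

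Slc32a1 counts per 100 Gad1 counts were higher in the purified fraction than in the lysate at the median of every set. The medians were 3.71 and 3.17 in purified Pvalb libraries at 15 and 60 min, against 1.57 and 1.98 in lysates, 7.46 and 3.81 in purified Sst libraries, against 1.25 and 0.82 in lysates, and 2.27 and 3.30 in purified Camk2a libraries, against 1.22 and 1.91 in lysates. In home cage libraries the lowest adjusted p of these 6 comparisons was 0.052, in the Pvalb set at 60 min (exact permutation test over 6 libraries each).

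The response to the shock was tested in the purified libraries of each set. In the Sst line at 60 min Gad2, Slc32a1 and Gad1 fell with the shock, whereas Abat and Slc6a11 were not called. Gad2 had 68.2, 73.7, 55.1 and 73.9 CPM in shock libraries, 474, 175, 279.8 and 625 CPM in box libraries and 183, 518, 115, 699 and 506 CPM in home cage libraries. Gad1 had 205, 278, 177 and 247 CPM in shock, 1459.6, 437, 751 and 1489 CPM in box and 435, 1331, 274, 1402 and 1138 CPM in home cage libraries. Slc32a1 had 7.82, 4.80, 5.92 and 6.31 CPM in shock, 64.1, 18.9, 32.1 and 58.2 CPM in box and 16.2, 35.6, 10.3, 59.8 and 60.5 CPM in home cage libraries. All shock values of Gad2 and Slc32a1 lay below all others, and for Gad1 the highest shock library, 278 CPM, just met the lowest home cage library, 274 CPM.

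Against the home cage the log2 fold changes were −2.69 ± 0.54 for Gad2, −2.67 ± 0.56 for Slc32a1 and −2.13 ± 0.52 for Gad1 (adjusted p = 0.019, 0.021 and 0.038), beside 4.49% of all genes called. Against the box they were −2.68 ± 0.56, −2.96 ± 0.58 and −2.34 ± 0.54 (adjusted p = 0.017, 0.014 and 0.025), beside 8.18%. Both contrasts share the 4 shock libraries. In the other 5 sets edgeR and DESeq2 called no member for shock against the box, beside 0% of genes, and 3 of 25 member tests had an unadjusted p under 0.05. Abat had 200.5, 154, 180.2 and 136 CPM in shock libraries and a fold change of −0.50 ± 0.23 against the home cage (adjusted p = 0.23). Slc6a11 had 42.4, 25.3, 39.9 and 28.6 CPM in shock libraries, with 0.53 ± 0.25 (adjusted p = 0.25).

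Other transcripts moved with these falls. The shock libraries held 2.98 to 155 CPM of Sst, against 1081 to 4958 CPM in box and 242 to 3535 CPM in home cage libraries. The 12 markers of GABA neurons summed to 339 to 391 CPM in shock libraries, against 665 to 1470.0 CPM in box and 449 to 1307 CPM in home cage libraries, with 6 of 12 fallen and none risen against the home cage. The 12 astrocyte markers summed to 5478 to 5808 CPM, against 2114 to 3962 CPM in box and 1731 to 4131 CPM in home cage libraries, with 3 called higher. With a per-library score of the line's own markers against those of other classes in the fit, the changes against the home cage were −0.41 for Gad2, −0.27 for Slc32a1 and 0.09 for Gad1, none past the threshold. All 3 calls against the home cage were also lost without the deep libraries, at −2.11, −1.83 and −1.68 (adjusted p = 0.12, 0.12 and 0.21), and without the 2 shock replicates whose Sst was near 0, at −2.72, −2.83 and −2.08 (adjusted p = 0.18, 0.18 and 0.26). Against the box all 3 calls were lost without those 2 shock replicates (adjusted p of 0.12 to 0.17), and without the deep libraries that of Gad1 was, at −2.13 (adjusted p = 0.064). With the replicate number as a block the changes against the home cage were −2.33 for Gad2, −2.22 for Slc32a1 and −1.82 for Gad1, none past the threshold (adjusted p = 0.076, 0.085 and 0.12). With sex, inferred from Y-linked transcripts, as a covariate Gad1 lost its call (adjusted p = 0.070), and Gad2 and Slc32a1 kept theirs. Single libraries also decided these calls. Gad2 lost its call against the home cage without shock replicate 3 or 4 (adjusted p = 0.054 and 0.069), Slc32a1 without shock replicate 2, 3 or 4 or home cage replicate 5 (adjusted p of 0.052 to 0.079), and Gad1 without any 1 shock library, box replicate 3 or home cage replicate 2, 4 or 5 (adjusted p of 0.051 to 0.11). Against the box each of the 3 lost its call without shock replicate 4 (adjusted p of 0.054 to 0.075), Gad2 and Gad1 also without box replicate 4, and Gad1 without shock replicate 3 or box replicate 1. In bulk RNA, fewer marked cells or a weaker pull-down and less RNA per marked cell cannot be told apart.

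**Figure D4:**
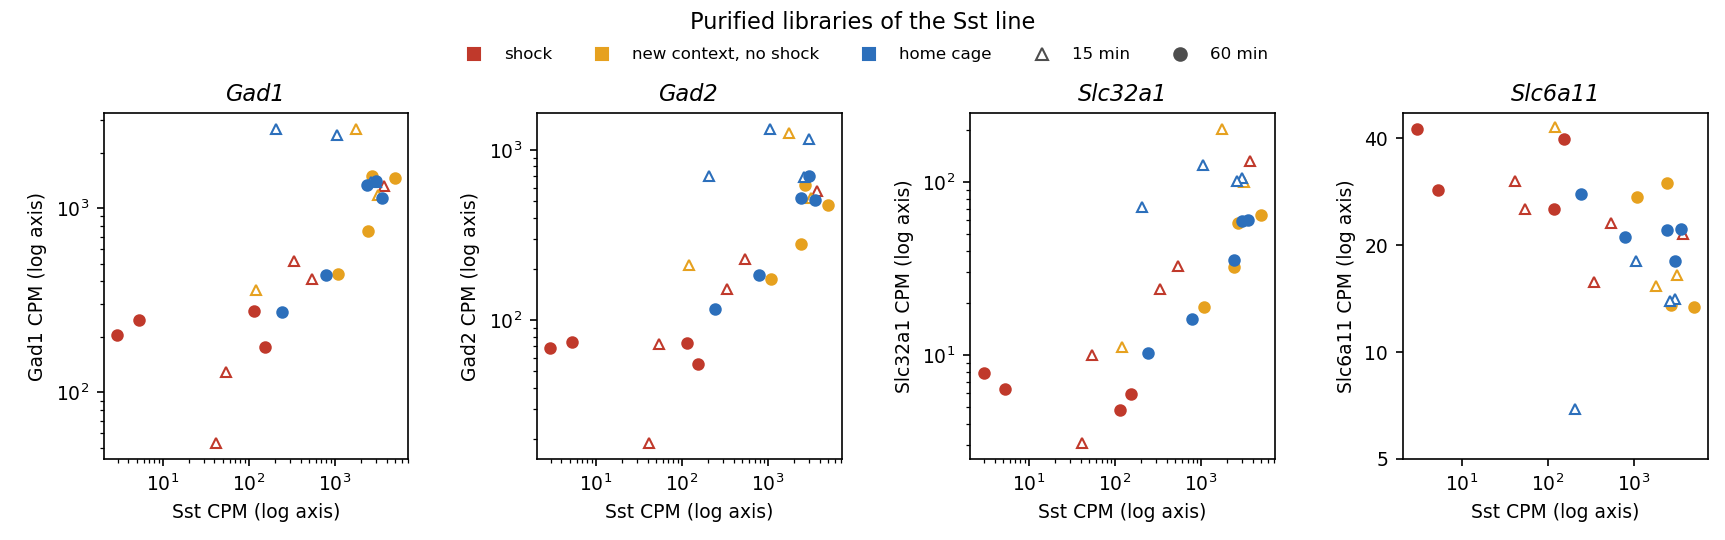
CPM of Gad1, Gad2, Slc32a1 and Slc6a11 against CPM of Sst, both on log axes, in each purified Sst-line library; colours mark shock, box (new context, no shock) and home cage, and shapes the time set. The 4 shock libraries at 60 min lie at 2.98 to 155 CPM of Sst, below every box and home cage library of that set.

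In the same set a few other handling genes changed. Against the box Got1, an aspartate aminotransferase, fell by 0.75 ± 0.17, and Aldh1a1, an aldehyde dehydrogenase, rose by 0.97 ± 0.25 (log2, adjusted p = 0.025 and 0.034). They were among 4 falling and 2 rising genes of the 29. The median log2 change of the 29 was −0.18 against the home cage, beside 0.04 over all genes tested.

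In the Pvalb line at 60 min Gad2 was the member called after shock. It ran from 271 over 334 to 707 CPM in 6 shock libraries, against 575, 683 and 808 CPM in 6 home cage libraries, and had 551, 764, 369.8 and 581 CPM in box libraries. Of the shock libraries 4 lay below all home cage libraries and 2, at 648 and 707 CPM, lay among them. The log2 fold change was −0.67 ± 0.25 (adjusted p = 0.041), beside 35% of all genes called in that contrast. It was −0.18 (adjusted p = 0.69) with offsets for GC content and length, missed the threshold with no filter on low counts (adjusted p = 0.072), and lost its call in 9 of 16 fits that each left out a library, home cage replicates 2, 3, 4, u1 and u2 or shock replicates 3, 4, 5 and 6, at adjusted p of 0.051 to 0.11. The call of Gad2 was also lost with the replicate number as a block. Gad1 had −0.42 ± 0.20, Abat −0.25 ± 0.13, Slc6a11 −0.05 ± 0.25 and Slc32a1 −0.02 ± 0.20 (adjusted p = 0.10, 0.14, 0.90 and 0.96). Of the 29 handling genes 6 rose and 11 fell there, among them Slc1a3 by −0.87 ± 0.14 and Maob, a monoamine oxidase of astrocytes, by −1.49 ± 0.35 (adjusted p = 0.00059 and 0.0035).

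No member was called by edgeR in the other 4 shock against home cage contrasts, in which 4 of 20 member tests had an unadjusted p under 0.05. In the Sst set at 15 min, where 1.21% of genes were called, Gad1 had 1311, 414, 517, 53.0 and 129 CPM in shock libraries, against 1383, 2679, 2487 and 1380 CPM in home cage libraries, with no overlap and a fold change of −2.19 ± 0.79 (adjusted p = 0.14). Gad2 had −2.37 ± 0.77 (adjusted p = 0.11) and Abat −1.50 ± 0.41 (adjusted p = 0.078), and DESeq2 called these 3 and no other member in these contrasts. Without shock replicate 1, the highest of the 5 for Gad1, edgeR called them too, at −2.96, −3.16 and −1.92 (adjusted p = 0.045, 0.030 and 0.012). Shock replicates 4 and 5 of that set held 41.8 and 54.8 CPM of Sst and 6509.7 and 4437 CPM of astrocyte markers, and the part of these in the low values was not tested. No gene (0%) was called in the Pvalb and Camk2a sets at 15 min, and 2.3% were in the Camk2a set at 60 min. Their member fold changes lay between −1.05 for Slc32a1 and −0.29 for Slc6a11 in the Camk2a set at 15 min, between −0.12 for Slc6a11 and 0.92 for Gad2 in the 60 min Camk2a set, and between −0.74 for Gad1 and 0.49 for Slc6a11 in the Pvalb set at 15 min.

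**Figure D5:**
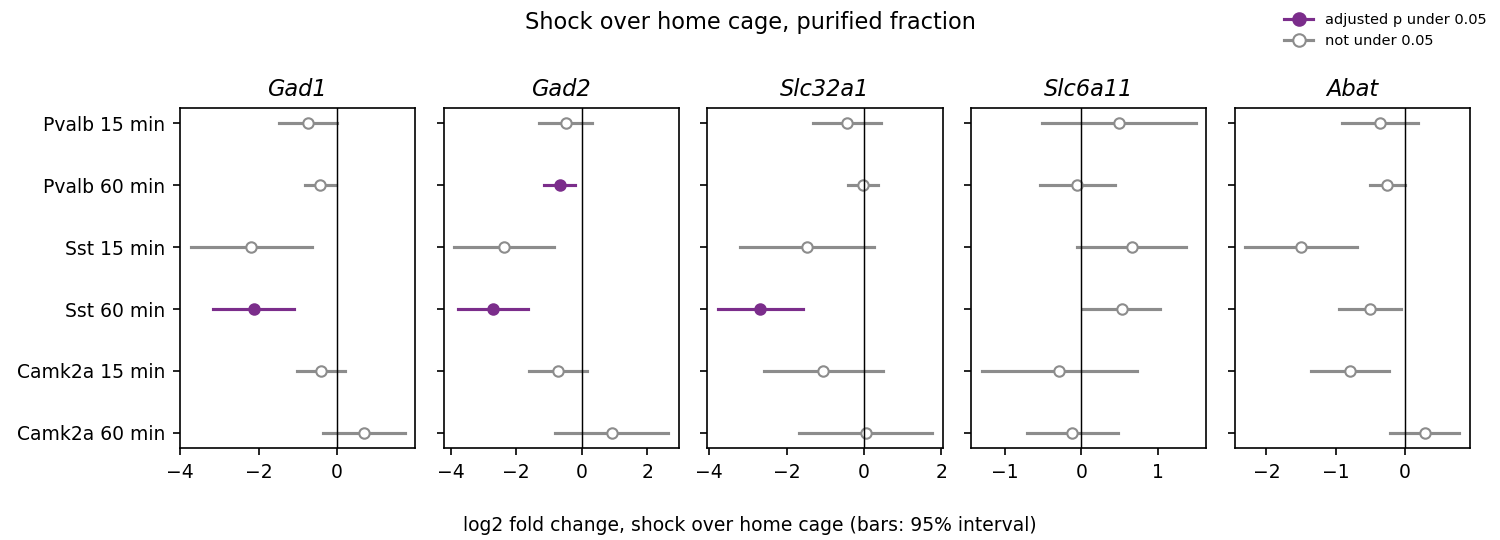
Log2 fold change of shock over home cage for each member in purified libraries of the 3 lines and both time sets; points are fitted values and bars are 95% intervals. The falls of Gad1, Gad2 and Slc32a1 in the Sst line at 60 min lie between −2.69 and −2.13, and their intervals do not reach 0.

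Box and home cage libraries did not differ past the threshold for any member. In the 6 contrasts of purified libraries edgeR called 0% of genes, DESeq2 called no member, none of 30 member tests had an unadjusted p under 0.05, and member fold changes ran from −0.57 ± 0.87 for Gad2 to 0.69 ± 0.40 for Slc6a11, both in the Sst set at 15 min. In lysates, fitted over the 3 lines, no member was called for shock against the home cage by edgeR or DESeq2, beside 0.114% and 0% of genes at 15 and 60 min, and 1 of 10 member tests had an unadjusted p under 0.05. The same tools called none in lysates for box against home cage, beside 0.012% and 0%, or shock against box, beside 0% at both times, with 0 of 20 unadjusted p under 0.05. Gad1 had −0.09 ± 0.10 and 0.07 ± 0.14, Gad2 −0.23 ± 0.14 and −0.12 ± 0.18, Slc32a1 −0.16 ± 0.16 and −0.15 ± 0.15, Slc6a11 −0.04 ± 0.09 and −0.32 ± 0.15, and Abat 0.02 ± 0.06 and −0.14 ± 0.07 (adjusted p of 0.80 or more). These standard errors bound what the lysates could show.

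Differences between responses were tested directly. At 60 min the shock response of the Sst line was below that of the Camk2a line by −3.63 ± 0.88 for Gad2 and −2.83 ± 0.67 for Gad1 (log2, adjusted p = 0.014 and 0.012), beside 4.85% of genes called. The response of the Pvalb line was above that of the Sst line by 2.7 ± 0.84 for Slc32a1 and 1.76 ± 0.61 for Gad1 (adjusted p = 0.021 and 0.039), beside 18.2%. These 4 differences rest on the Sst shock libraries described above and were lost without the deep Sst libraries or without the 2 shock replicates whose Sst was near 0. The Slc32a1 difference was also lost without Sst shock replicate 2 or home cage replicate 5 (adjusted p = 0.053 for both), and the Gad1 difference of Pvalb over Sst in 13 fits that each left out 1 Pvalb or Sst library (adjusted p of 0.050 to 0.076). Camk2a home cage replicate 3 counted the other way, since without it Slc32a1 was called for Sst over Camk2a, at −4.19, and Gad1 and Gad2 for Pvalb over Camk2a, at −1.83 and −2.87 (adjusted p = 0.0081, 0.022 and 0.0059). With all libraries no member was called for Pvalb over Camk2a, where 37.6% of genes were, nor for any pair of lines at 15 min, where 0.00609% were for Pvalb over Camk2a, 0.31% for Sst over Camk2a and 0.0791% for Pvalb over Sst, and 2 of these 20 member tests had an unadjusted p under 0.05. For the difference between 60 and 15 min no member was called in any line, beside 5.71% of genes in the Camk2a line and 0% in the others, with 1 of 15 unadjusted p-values under 0.05 and no call by DESeq2. For the purified response minus the lysate response edgeR called no member in any set, beside 20.4% of genes in the Pvalb set at 60 min, 1.58% in the Sst set at 15 min, 0.0415% in the Sst set at 60 min, 0.00638% in the 15 min Camk2a set, and 0% in the other two. Of these 30 member tests 6 had an unadjusted p under 0.05. In the Sst set at 60 min that difference was −2.27 ± 0.60 for Gad1, −2.54 ± 0.67 for Gad2 and −2.38 ± 0.60 for Slc32a1 (adjusted p of 0.11 to 0.13). DESeq2 called all 3, and Abat in the Sst set at 15 min.

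The levels of the members over the 36 groups gave 2 patterns. Mean log2 CPM of Gad1 and Gad2 had a Pearson correlation of 0.95, Gad1 and Abat of 0.91 and Gad1 and Slc32a1 of 0.90, and that of Gad1 with Slc6a11 was 0.05. The groups share lines, libraries and purity, so these values describe the groups and carry no test. The genes whose pattern was most like each member were Kcnip1, Tac1 and Akr1c18 for Gad1 (0.98, 0.98 and 0.97), Nxph1, Kcnmb2 and Ifit2 for Gad2 (all 0.97) and Rab3b, Pvalb and Cacna2d2 for Slc32a1 (all 0.96). They were Lypd6, Fzd1 and Btbd11 for Abat (0.97, 0.97 and 0.96), and Cxcl14, Fads2 and Fgfr3 for Slc6a11 (all 0.96), of which Fgfr3 is on the astrocyte list.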

How the data were processed

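Per the labels' protocols, libraries were prepared with Nextera XT from polyA RNA purified on RNeasy Mini columns. The authors deposited unnormalised read counts per gene symbol in 6 tables, one for every pairing of a line with a time set, which hold purified and lysate columns together. The tools named in the submitters' processing notes are featureCounts, STAR 2.7.7a and DESeq2, with the build GRCm38; the counting settings are not given in the sources used here. The labels list 153 samples, 2 more than the 151 columns, so 2 samples are not analysed here. For 3 of the columns the name matched no single sample and gave the group alone, so they carry no replicate number here (u1, u2).

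From the counts, CPM were computed over all genes listed. Whole tables were tested with the robust quasi-likelihood test of edgeR 4.0.16 (R 4.3.3), after filterByExpr and with TMM factors. Benjamini-Hochberg adjustment ran over every gene tested in a contrast, and 0.05 was the threshold. An SE is the log2 fold change over the root of the F value. Purified libraries of a table were fitted over the 3 conditions, purified against lysate over all libraries of a table, lines over the purified libraries of a time set, time sets over those of a line, and lysates over 3 lines with line as covariate. Count ratios were compared by two-sided exact permutation tests in scipy 1.17.1. The fits were tested on simulated counts with known changes. Alternatives were DESeq2 1.42.0, its size factors, no filter, GC and length offsets, sex, a class score, a replicate block and leaving out libraries. Sex was inferred from the counts. A library was taken as male where Ddx3y, Eif2s3y, Kdm5d and Uty summed to over 5 CPM. Class scores and correlations used log2(CPM + 0.1). Exon lengths and coordinates come from GENCODE M21.

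The members and gene lists were chosen with earlier results of these data known. Genes outside the members were named by rule: up to 4 of the 29 handling genes with the smallest p past the threshold and the 3 genes most like each member; of these, those printed were chosen after their values were seen, and some are not reported here. The labels give replicate numbers with no stated meaning. In the Sst set at 60 min all 4 same-numbered pairs of purified shock and home cage libraries had correlated deviations (r of 0.15 to 0.49), so the blocked values stand beside that result. Of these, the pairs of replicates 2, 3 and 4 were of unlike inferred sex. Same-numbered box and home cage libraries of that set had r of −0.51 and −0.48 for replicates 1 and 2. For replicates 3 and 4 it was 0.14 and 0.39. No pair of libraries of a group agreed within sampling noise (smallest reduced chi-square 20.6). Counting without molecular identifiers means that depth bounds counting error only.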

Additional observations from a re-analysis of the deposited data

Results flagged for a closer look

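A library that stands apart was sought in 135 tests, each of 1 member in 1 group of 4 to 6 libraries. Of these 10 found one, by the gap to the next library over the range of the group. Chance gives about 5%, or 1 in 20, if values are normally distributed, which was not checked for these CPM. Tests of different members share libraries, so they are not independent. Home cage replicate 3 of the purified Camk2a line at 60 min stood apart for 3 members, with 131 CPM of Gad1 against 36.6 to 44.9 CPM in the other 3, 44.7 CPM of Gad2 against 6.35 to 8.25 CPM, and 9.47 CPM of Slc32a1 against 0.95 to 1.62 CPM. Its summed markers of GABA neurons were 111 CPM, against 29.6 to 52.1 CPM in the other 3. Shock replicate 5 of the same line and set had 97.3 CPM of Gad2, against 5.54 to 21.6 CPM in the other 4, with 136 CPM of GABA neuron markers.

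In the purified Sst line at 15 min home cage replicate 2 had 603 CPM of Abat, against 275 to 296 CPM in the other 3, and shock replicate 1 had 132 CPM of Slc32a1, against 3.08 to 32.7 CPM in the other 4. In the Pvalb line, box replicate 2 of the purified set at 60 min had 117 CPM of Slc32a1 against 82.1 to 84.6 CPM, home cage replicate 3 of the purified set at 15 min had 20.6 CPM of Slc6a11 against 8.40 to 10.4 CPM, and the lysate of box replicate 2 at 15 min had 444 CPM of Gad1 against 281 to 304 CPM. The lysate of Sst box replicate 1 at 60 min, a library of over 250000000 counts, was low in Gad2, with 98.2 CPM against 240.5 to 245 CPM.

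The shock responses of lines differed by the test of the difference itself in 4 cases, all at 60 min. The Sst response lay below the Camk2a response by −3.63 for Gad2 and −2.83 for Gad1 (log2), beside 4.85% of genes called. The Pvalb response lay above the Sst response by 1.76 for Gad1 and 2.7 for Slc32a1 (log2), beside 18.2%. Each of the 4 kept its call under 3 of 6 alternatives. The calls were lost with a replicate block, without the deep Sst libraries and without the Sst shock libraries of lowest Sst.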

How the results depend on the processing

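Of the 30 fold changes of purified over lysate, the 24 calls became 23 to 25 when single libraries were left out, and the 65 of 90 calls by condition became 62 to 68. The 21 of 30 calls between lines became 19 to 21. For shock against the home cage the 4 purified calls became 1 to 7, for shock against the box the 3 became 0 to 3, for differences of the shock response between lines the 4 became 2 to 9, and for the purified response minus the lysate response the 0 became 0 to 2. Counts for box against home cage, for lysates and for the time sets were 0 and stayed 0 in those fits.

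For shock against the home cage there were 7 calls with DESeq2, 2 with the class score, 1 without the Sst shock libraries with Sst near 0 and 1 without the deep Sst libraries, those of over 250000000 counts. For shock against the box there were 0 with the class score and 0 without the libraries with Sst near 0. With the class score Gad1 in the Sst set at 60 min turned to 0.094 against the home cage and 0.23 against the box. For the shock response between lines there were 0 without either set of Sst libraries. For the purified minus the lysate response there were 4 with DESeq2 and 2 with GC and length offsets. The cause was not tested. These alternatives on Sst libraries, and GC offsets for purified against lysate, were chosen after seeing the data. Shares of all genes called are given for the main fits alone, here and above. Member calls under an alternative can therefore not be set against the other genes.

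The labels number replicates alike across groups. Across conditions, same-numbered purified libraries had correlated deviations (r over 0.1) in 19 of 64 pairs, and 31 of the 64 were of unlike inferred sex. Over these 64 pairs r ran from −0.51 to 0.49. Across fractions r was over 0.1 in 39 of 72 pairs, ran from −0.57 to 0.59, and 6 of the 72 were of unlike inferred sex. Whether the numbers pair the fractions of a sample was not settled, and the main fits did not pair libraries. With a replicate block the counts were 25 for purified over lysate, 59 by condition, 20 between lines, 0 for shock against the home cage (Gad2 of the Pvalb set included), 3 against the box and 0 between shock responses of lines.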
